A study of Glycine max with 9 samples.

Results

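The 24h and 12h libraries of soybean (Glycine max) root hair cells were compared, 6 of the 9 libraries of the series. They were chosen by their labels, with 3 libraries titled 12h and 3 titled 24h, and each library is named here by its group and replicate number. All plants had the genotype given as willam 82 and grew in an ultrasound aeroponic system, without soil, and sequencing libraries were made with a TruSeq kit. The 12h group was 276 hours old after sowing and the 24h group 288 hours old, so the groups lie 12 hours apart. The sources used here do not give what the hours in the titles count from. If both groups were sown at the same hour, they were also harvested at opposite times of day, and age and time of day cannot be told apart. The labels do not say whether the libraries of a group are from different plants or runs of growth. The p-values therefore measure only how far these libraries differ, and that spread may be technical.

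Root hairs are tubular outgrowths of epidermal cells that grow at their tip and enlarge the root surface for the uptake of water and nutrients. In legumes they are also the cells through which rhizobia enter the root. The series addresses how transcription changes as these cells develop, and this comparison covers its first interval. In such bulk samples, fewer cells of a type and less RNA per cell cannot be told apart. Neither the deposited table nor the reference table pairs the Glyma IDs with gene names (0 IDs matched), so the cell type was not checked against markers, and no name or role is given to the genes found by the test.

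Levels are given in FPKM, which divides the fragments of a gene by its length and by the mapped fragments of the library. Of 56044 gene IDs, 29274 (52.2%) reached 1 FPKM in at least 3 of the 6 libraries and were tested. The number of IDs at 1 FPKM or more ran from 25119 to 29921 per library. Summed FPKM was lowest in 12h replicate 3 (695919), and depth is unknown, because FPKM values do not hold read totals.

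The library 12h replicate 2 stood apart from the other 12h libraries and lay closer to the 24h group. Across the tested genes its Pearson correlations with the 3 24h libraries were 0.909, 0.916 and 0.925. With 12h replicates 1 and 3 they were 0.856 and 0.765. The 12h replicate 1 in turn correlated best with 24h replicate 1 (0.933), and its correlation with 12h replicate 3 was 0.883. The library 12h replicate 3 had no correlation above 0.883 with any of the others. The 24h libraries correlated with each other at 0.923 to 0.950. These are descriptions across 29274 genes, which are not independent replicates. Whether the 12h label of this library is right, or its RNA quality differs, was not tested, and this bears on every value that uses it.

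**Figure D1:**
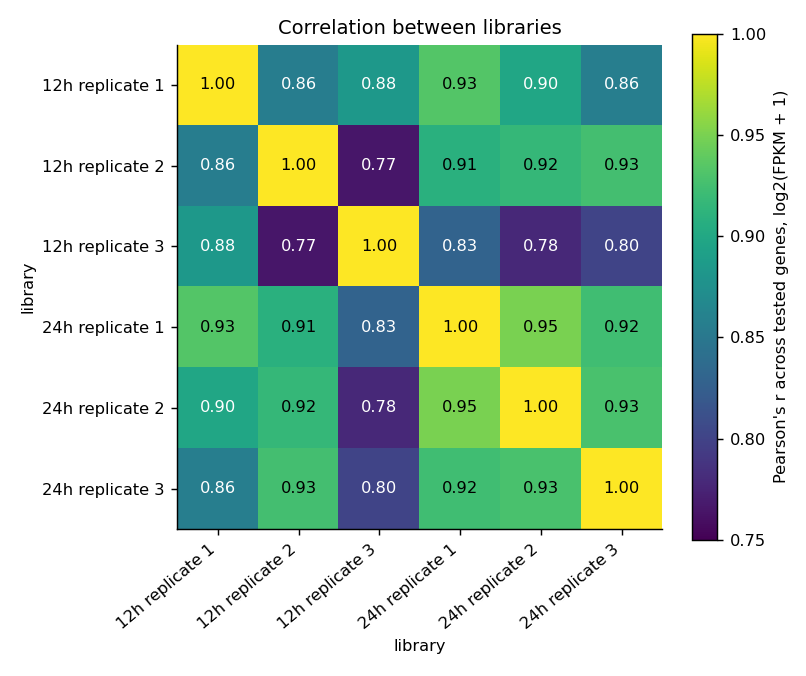
Pearson's r between each pair of the 6 libraries, across 29274 tested genes on the log2(FPKM + 1) scale. The row of 12h replicate 2 is higher in the 24h columns (0.91 to 0.93) than in the columns of the other 12h libraries (0.86 and 0.77).

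The same library held more of its FPKM in few genes. Its 100 highest genes made up 53.6% of the sum, against 28.1% and 24.0% in 12h replicates 1 and 3 and 33.1%, 38.5% and 38.0% in 24h replicates 1, 2 and 3. The groups overlapped in this share, with means of 35.2% ± 16.02 for 12h and 36.5% ± 2.96 for 24h (SD over 3 libraries), and a two-sided exact permutation test gave p = 1, where the smallest p of this design is 0.1. On the log2 scale, the SD per gene had a median of 0.631 among the 3 12h libraries, 0.331 between 12h replicates 1 and 3, and 0.373 among the 24h libraries. The median SD of 2 libraries tends to be lower than that of 3. The value of 0.331 therefore does not show that 12h replicates 1 and 3 were closer than the 24h libraries.

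Between 12h and 24h, 9 genes passed the test, 6 of them higher and 3 lower at 24h (limma, Benjamini-Hochberg adjusted p under 0.05 over all tested genes). These are 0.0307% of the tested genes (0.0205% higher and 0.0102% lower), and 1255 genes (4.29%) had an unadjusted p under 0.05. At each of the 9 genes the 12h and 24h libraries did not overlap, and this held after median-of-ratios scaling, which sets the libraries to a common median gene. Over all tested genes the groups did not overlap at 10.4% as deposited and at 14.1% after scaling. All 9 had at least 5 FPKM on average in their higher group.

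Glyma.11G236700 had 1.64, 1.97 and 3.19 FPKM in 12h replicates 1, 2 and 3 and 125, 65.2 and 88.6 FPKM in 24h replicates 1, 2 and 3. The lowest 24h library was thus far above the highest 12h library. The means were 2.27 ± 0.813 and 92.9 ± 30.1 FPKM (SD, n = 3 each), a 41.0-fold difference of the means. On the log2(FPKM + 1) scale it rose by 4.82 ± 0.44 (SE; limma adjusted p = 0.000400), and it passed in 20 of 21 other fits.

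Glyma.08G122200 was at 0.963, 0.414 and 1.10 FPKM at 12h and at 83.9, 32.1 and 40.4 FPKM at 24h. Its means differed 63.3-fold, and its log2 fold change was 4.76 ± 0.48 (SE; adjusted p from limma = 0.00101). Replicate 1 was the highest 24h library, and each 24h library was far above the 12h range. This gene passed in 19 of 21 other fits.

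Glyma.05G128000 rose from 0.220, 0.568 and 0.0405 FPKM to 14.9, 7.84 and 7.95 FPKM (log2 fold change 3.10 ± 0.44 SE; limma adjusted p = 0.0254). Here too 24h replicate 1 was the highest library. Glyma.18G020300 was listed at 0 in 12h replicate 1 and had 0.561 and 0.186 FPKM in 12h replicates 2 and 3, against 29.4, 6.14 and 16.1 FPKM at 24h (log2 fold change 3.66 ± 0.54 SE; limma adjusted p = 0.0321). Of 21 other fits, they passed in 14 and 12, and their highest adjusted p-values were 0.668 and 0.824. After scaling their adjusted p-values were 0.0942 and 0.440. Without 12h replicate 2, Glyma.05G128000 passed (adjusted p = 0.0438) and Glyma.18G020300 did not (adjusted p = 0.0872).

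The other 2 genes that rose went from a listed 0 to a clear level. Glyma.12G085300 was listed at 0 in all 12h libraries and had 10.2, 11.3 and 7.40 FPKM at 24h (limma adjusted p = 0.00400). It passed in 16 of 21 other fits and not without 12h replicate 1 (adjusted p = 0.0791). Glyma.16G039000, which passed in 19 of 21 other fits, was listed at 0 in 12h replicate 2 and at 3.65e-45 and 7.36e-68 FPKM in 12h replicates 1 and 3, against 37.7, 30.0 and 40.8 FPKM at 24h (limma adjusted p = 0.000206). Values above 0 and under 1e-06 occurred for 54 to 93 genes in each of the 9 libraries, so such a value is read here like a listed 0. A 0 in a table of this kind can be a failed estimate, and no fold is given against it.

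Among the 3 genes that fell, 2 were listed at 0 in every 24h library. Glyma.10G003900 had 28.6, 54.4 and 72.9 FPKM at 12h (limma adjusted p = 0.000206). The 12h values of Glyma.08G263400 were 8.74, 9.17 and 17.7 FPKM (limma adjusted p = 0.00400). The third, Glyma.01G134700, had 28.0, 38.7 and 22.4 FPKM at 12h and was listed at 0 in 24h replicates 1 and 3, with 3.90 FPKM in 24h replicate 2. Its log2 fold change was -4.14 ± 0.60 (SE; limma adjusted p = 0.0321). It passed in only 9 of 21 other fits, and neither after scaling (adjusted p = 0.440) nor without 12h replicate 2 (adjusted p = 0.104).

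Of the 9 called genes, 6 were listed at 0 in at least 1 of the 6 libraries and 4 throughout a group. Among all 16374 tested genes whose mean reached 5 FPKM, 183 (1.12%) had a 0 in any library and 3 had it throughout a group, all 3 of them called genes (Glyma.16G039000, Glyma.10G003900 and Glyma.08G263400). A gene under 1 FPKM throughout a group passes the filter only if all 3 libraries of the other group reach 1 FPKM. This holds for the genes at 0 throughout a group, and for Glyma.05G128000 and Glyma.18G020300, both under 1 FPKM in every 12h library. The lack of overlap at such a gene is thus set by the filter and adds no support. Counting genes of any level that were at 0 in all libraries of a group and at 1 FPKM or more in all of the other gave 3 at 0 in the 12h group and 4 at 0 in the 24h group. The 3 of these 7 that did not pass were Glyma.06G022400, Glyma.10G109300 and Glyma.20G248200, all under 5 FPKM in every library (limma adjusted p 0.228, 0.228 and 0.161).

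**Figure D2:**
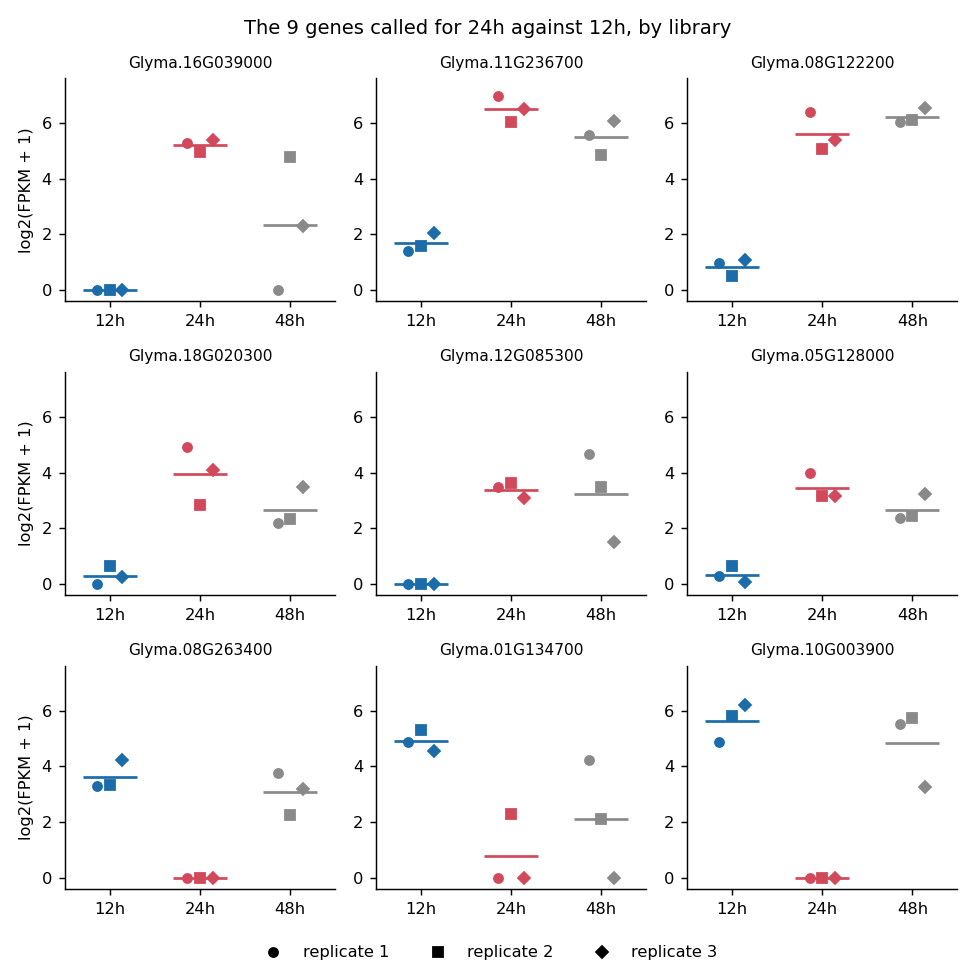
Level of the 9 called genes in each library, as log2(FPKM + 1), for 12h (blue), 24h (red) and 48h (grey); marker shapes give the replicate numbers and lines the group means on this scale. The 12h and 24h libraries do not overlap in any panel, and 4 panels have a whole group at or near 0.

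Leaving 12h replicate 2 out, and scaling the libraries, kept 6 or 7 of these calls and added none. After scaling 6 genes passed (4 higher, 0.0137%, and 2 lower, 0.00683%; 0.0205% in all), and all 6 were among the 9. Without 12h replicate 2, 7 passed (5 higher, 0.0171%, and 2 lower, 0.00683%; 0.0239% in all), again all among the 9, and the same 7 genes passed when the 5 remaining libraries were scaled. The 6 genes that passed in all of these settings were Glyma.16G039000, Glyma.11G236700, Glyma.08G122200, Glyma.12G085300, Glyma.10G003900 and Glyma.08G263400. All 9 kept their direction in every other fit that was run. The lack of overlap at these genes largely fixes this in advance, so it adds no support.

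Below the threshold the picture without 12h replicate 2 was different. The genes with an unadjusted p under 0.05 numbered 6860 (23.4%), of which 2646 (9.04%) were higher and 4214 (14.4%) lower at 24h (limma). After scaling they were 7699 (26.3%), with 3540 (12.1%) higher and 4159 (14.2%) lower. With all 6 libraries the counts were 1255 (4.29%) as deposited and 2193 (7.49%) after scaling. A large group of genes had an adjusted p between 0.1 and 0.15, well above the threshold of 0.05. In the 5 libraries as deposited, 30 genes had an adjusted p under 0.1 and 3841 one under 0.15. In the 5 scaled libraries these counts were 9 and 5080. With all 6 libraries, 14 genes had an adjusted p under 0.15 as deposited and 7 after scaling. The thresholds above 0.05 were looked at after the data were seen, and no gene is called from them.

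**Figure D3:**
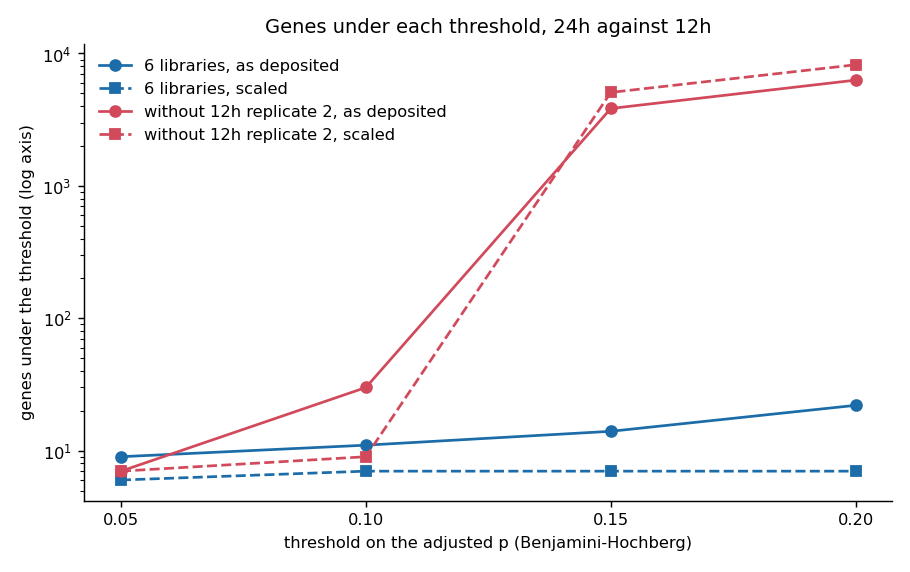
Number of genes (log axis) under adjusted p thresholds of 0.05, 0.1, 0.15 and 0.2, with 6 libraries (blue) and without 12h replicate 2 (red), as deposited (circles, solid lines) and scaled (squares, dashed lines). The red lines rise from 7 genes at 0.05 to 3841 and 5080 at 0.15, while the blue lines stay at 7 to 22 genes from 0.15 to 0.2.

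The count of calls without 12h replicate 2 depended on whether the 48h libraries took part in estimating the spread. With the 3 libraries of the oldest group (312 hours after sowing) in the fit, but the same contrast and the same genes, 3647 genes passed, 1413 higher and 2234 lower at 24h (12.5%). With scaling added, 4785 passed, 2134 higher and 2651 lower (16.3%). The fold changes are those of the same 5 libraries apart from the scaling, and the residual degrees of freedom rose from 3 to 5. With 12h replicate 2 kept, the fit of all 9 libraries called 13 genes (0.0444%), 6 of them among the 9.

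Separation of the groups was counted over all tested genes as a second description. This count has no test, and some genes separate in this way where groups do not differ. As deposited, 12h and 24h did not overlap at 3035 genes (10.4%), 2583 higher (8.82%) and 452 lower (1.54%) at 24h. After scaling there were 4136 (14.1%), with 1841 (6.29%) higher and 2295 (7.84%) lower, so the share that was higher went from 85.1% to 44.5%. On both scales and in the same direction there were 1404 (4.8%), of which 1020 (3.48%) were higher and 384 (1.31%) lower. Over all tested genes the log2 fold change had a median of 0.13 before scaling and 0.011 after it, a shift of 0.115.

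Without 12h replicate 2, 12829 genes (43.8%) did not overlap as deposited, 5257 higher (18%) and 7572 lower (25.9%). After scaling there were 13959 (47.7%), 6804 higher (23.2%) and 7155 lower (24.4%). With 5 libraries genes separate more readily than with 6, so this count is set only beside those with another library left out. As deposited these were 6580 genes without 12h replicate 1, 4210 without 12h replicate 3, and 5272, 3860 and 6495 without 24h replicates 1, 2 and 3. At 76.3% of the 12829 genes, 12h replicate 2 itself lay within or beyond the range of the 24h libraries. It lay on the side of the other 12h libraries at 15.6% and in between at 8.04%. For the 7572 genes that were lower at 24h it lay with the 24h libraries at 94.0%, and for the 5257 that were higher at 50.9%. After scaling over the 6 libraries these shares were 67.1% and 73.7%.

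Fold changes of abundant transcripts were mostly positive, by an amount that depended on 12h replicate 2, but none of them passed in the fits of the 12h and 24h libraries, scaled or not, with or without it. The 1415 genes averaging 100 FPKM or more had a median log2 fold change of 0.44 as deposited, 0.30 after scaling, 0.72 without 12h replicate 2 and 0.82 with both. The 7982 genes of 2 to 5 FPKM had medians of 0.031, -0.068, -0.21 and -0.14 in the same order. Without 12h replicate 2 and after scaling, 59.6% of the first class and 49.3% of the second did not overlap. With all 6 libraries scaled the order was the reverse, at 5.72% and 16.01%, beside 14.1% of all tested genes. Of the 100 highest genes by mean FPKM, 74 were higher at 24h with all libraries, beside 58.7% of all tested genes. After scaling 67 were higher (50.9% of all), and 82 without 12h replicate 2 after scaling (50.9% of all). None of the 100 passed (0 with limma). At an unadjusted p under 0.05 (limma) there was 1 as deposited, beside 4.29% of all tested genes. Without 12h replicate 2 after scaling there were 33, beside 26.3% of all tested genes. At 62 of the 100, 12h replicate 2 was the highest of the 6 libraries. The ranking used a mean that includes this library and so favours genes high in it. The same share over all tested genes was not counted. The mean log2 level of the 100 was 10.17, 11.60 and 9.51 in 12h replicates 1, 2 and 3. In 24h replicates 1, 2 and 3 it was 10.56, 10.75 and 10.75, so the groups overlapped.

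The single highest gene, Glyma.10G207000, shows this pattern. It had 64069, 284074 and 19626 FPKM in 12h replicates 1, 2 and 3 and 115789, 205961 and 126361 FPKM in 24h replicates 1, 2 and 3. The 24h libraries lay above 12h replicates 1 and 3 and below 12h replicate 2. Its log2 fold change was 1.03 (limma adjusted p = 0.875) and, without 12h replicate 2 after scaling, 2.12 (adjusted p = 0.259). On the log2 scale all 10 of the 10 highest genes had a positive fold change as deposited, beside 58.7% of all tested genes. After scaling 8 did, beside 50.9% of all tested genes. The smallest of the 10 as deposited was 0.0050 ± 0.94 (SE), at Glyma.08G230500. In mean FPKM 4 of the 10 were lower at 24h, and 12h replicate 2 was the highest library at 7 of the 10. These genes too were ranked by a mean that includes this library.

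**Figure D4:**
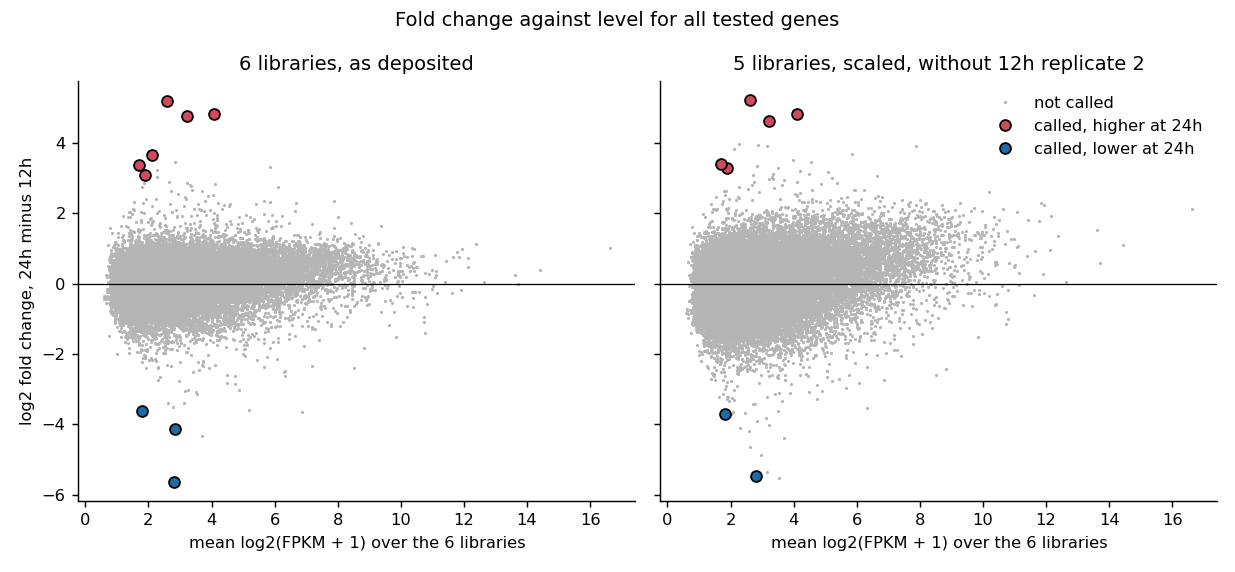
Log2 fold change of 24h minus 12h against the mean log2(FPKM + 1) over the 6 libraries, for 29274 tested genes; red and blue points passed (limma adjusted p under 0.05). With 6 libraries as deposited (left) 9 genes are marked; without 12h replicate 2 and after scaling (right) 7 are marked and the abundant genes lie mostly above 0.

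Clock loci were described from lists of IDs, because the groups may differ in time of day. In Arabidopsis the circadian clock is a loop of transcription factors in which MYB-type factors such as LHY peak around dawn and repress genes that peak in the evening, whose products act back on the morning genes. The morning list holds 4 loci and the evening list 7, both compiled from published soybean locus names. These assignments were not checked against an annotation here, and the lists were chosen with earlier results of these data known.

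The 4 loci of the morning list were each higher in every 24h library than in any 12h library as deposited. Only 2 of the 4 passed the filter on low values. Both were higher without overlap as deposited and after scaling, beside 8.82% and 6.29% of all tested genes. The 2 untested loci were not counted after scaling. Glyma.16G017400 had 2.47, 3.13 and 4.05 FPKM at 12h and 69.8, 9.33 and 24.1 FPKM at 24h. Its log2 fold change was 2.66 ± 0.61 (SE; limma unadjusted p = 0.000654, adjusted p = 0.456), which did not pass. It passed in 5 of 21 other fits, 1 of them without 24h replicate 2 (adjusted p = 0.0381; 0.0683% of tested genes passed in that fit), the lowest of the 24h libraries. Without 12h replicate 2 its adjusted p was 0.104 as deposited and 0.107 after scaling. With the 48h libraries in these fits it passed (limma adjusted p = 0.0350 and 0.0335), beside 12.5% and 16.3% of all tested genes. It also passed with a replicate block and with array weights, in fits that called 159 and 1356 genes.

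Glyma.07G048500 had 0.669, 0.922 and 1.48 FPKM at 12h and 10.3, 1.61 and 3.51 FPKM at 24h (log2 fold change 1.35; limma adjusted p = 0.839). Its lowest 24h library lay only just above its highest 12h library. The other two loci fell under the filter of 1 FPKM in 3 libraries and have no test here. Glyma.19G260900 had 0.0574, 0.0514 and 0.257 FPKM at 12h and 10.4, 0.844 and 2.82 FPKM at 24h, and Glyma.03G261800 had 0.0370, 0 and 0.0692 FPKM at 12h and 16.3, 0.582 and 4.09 FPKM at 24h. In both, 24h replicate 2 stayed under 1 FPKM, as did all 12h libraries.

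The spread among the 24h libraries was ordered alike at the 4 loci, with replicate 1 highest and replicate 2 lowest at each. The mean log2 level of the list was 0.666, 0.765 and 1.0185 in 12h replicates 1, 2 and 3 and 4.32, 1.57 and 2.78 in 24h replicates 1, 2 and 3. Each 24h library was above the 12h libraries in this mean. Here 12h replicate 2 did not stand apart from the other 12h libraries.

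The 7 loci of the evening list were all tested. As deposited all 7 had negative fold changes at 24h, beside 12091 of 29274 tested genes, and 1 of them (Glyma.10G221500) was near 0. The median was -0.59 beside 0.13 for all tested genes. None passed (0 with limma; 0 at an unadjusted p under 0.05, beside 4.29% of all tested genes). Without 12h replicate 2 and after scaling the median was -1.07 beside 0.017 for all tested genes, and 4 of 7 had an unadjusted p under 0.05, beside 26.3% of all tested genes. As deposited the groups overlapped at 7 of 7 loci. After scaling they did not overlap at 2, Glyma.04G166300 and Glyma.06G196200, both lower at 24h, beside 7.84% of all tested genes.

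Glyma.04G050200 had 32.6, 6.90 and 45.3 FPKM at 12h and 6.95, 15.97 and 5.40 FPKM at 24h. Only 12h replicate 2 fell into the range of the 24h libraries. Its log2 fold change was -1.28 ± 0.63 (SE; limma adjusted p = 0.839) with all libraries and -1.96 ± 0.44 (SE; adjusted p = 0.107) without 12h replicate 2 after scaling. Glyma.06G196200 had 14.9, 7.01 and 14.1 FPKM at 12h and 4.94, 7.67 and 4.68 FPKM at 24h, and its log2 fold changes in the same settings were -0.91 and -1.14 (limma adjusted p = 0.839 and 0.112). With the 48h libraries in the fit and without 12h replicate 2, Glyma.04G050200 passed (adjusted p = 0.0278 as deposited and 0.0289 scaled), as did Glyma.06G196200 (0.0317 and 0.0298). In those fits 2 of 7 evening loci passed as deposited and 3 of 7 scaled, all lower, beside 12.5% and 16.3% of all tested genes in either direction.

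Glyma.20G170000 had 11.4, 0.788 and 12.6 FPKM at 12h and 2.19, 6.99 and 0.527 FPKM at 24h. Its log2 fold change went from -0.98 with all libraries to -1.89 without 12h replicate 2 after scaling (limma adjusted p = 0.839 and 0.118). Glyma.10G221500 had 18.99, 1.67 and 31.8 FPKM at 12h and 11.04, 23.8 and 4.23 FPKM at 24h, and its groups overlapped with or without 12h replicate 2. Its log2 fold changes were -0.056 ± 0.81 and -1.07 ± 0.56 (SE), and it kept the negative sign in only 16 of 21 other fits.

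The other 3 loci of the evening list overlapped between the groups as deposited. Glyma.04G166300 had 10.6, 3.23 and 6.70 FPKM at 12h and 5.60, 5.18 and 2.11 FPKM at 24h. Glyma.11G136600 had 8.16, 5.59 and 4.14 FPKM at 12h and 2.45, 8.04 and 1.98 FPKM at 24h, and Glyma.12G060200 had 2.99, 1.62 and 2.04 FPKM at 12h and 0.544, 2.97 and 0.531 FPKM at 24h. In the last of these, 24h replicates 1 and 3 lay below all 12h libraries and 24h replicate 2 near the top of their range.

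Within the groups the evening list also varied by library. As deposited, 12h replicate 2 was the lowest of its group at 6 of 7 loci. At 24h, replicate 2 was the highest at 6 of 7 and replicate 3 the lowest at 7 of 7. So 24h replicate 2 was the lowest of its group on the morning list and the highest at most loci of the evening list. The median-of-ratios factors were lowest in 12h replicate 2 (0.670) among the 12h libraries and in 24h replicate 3 (0.870) among the 24h libraries. The orders after scaling were not counted. The mean log2 level of the evening list was 3.68, 2.06 and 3.59 in 12h replicates 1, 2 and 3 and 2.28, 3.23 and 1.72 in 24h replicates 1, 2 and 3, with the groups overlapping. The part of sampling time, library and age in this spread was not tested.

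**Figure D5:**
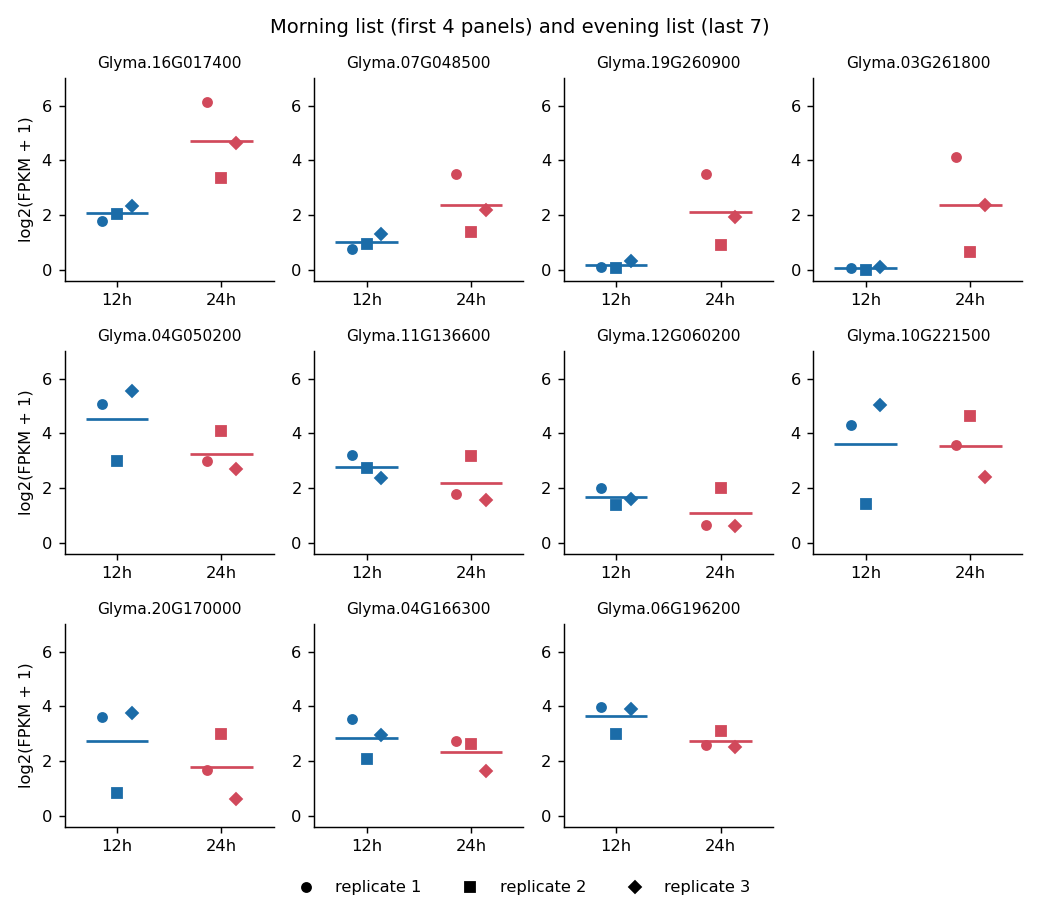
Level of each clock-list locus by library, as log2(FPKM + 1), at 12h (blue) and 24h (red), with lines at the group means; the first 4 panels are the morning list and the other 7 the evening list. At the morning loci every 24h library is above the 12h libraries with replicate 1 (circle) highest, and at most evening loci 24h replicate 2 (square) is highest of its group.

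A list of 10 loci compiled from published nodulation genes had 3 tested members, and 0 passed. Of the 7 that were not tested, 4 (Glyma.20G191200, Glyma.10G198800, Glyma.10G199100 and Glyma.10G199000) were listed at 0 in all 6 libraries. Glyma.02G270800 had 21.9, 16.3 and 10.1 FPKM at 12h and 25.1, 12.8 and 16.9 FPKM at 24h (log2 fold change 0.18; limma adjusted p = 0.928). Glyma.11G063100 had 31.8, 19.3 and 8.83 FPKM at 12h and 33.3, 17.5 and 16.8 FPKM at 24h (log2 fold change 0.26; limma adjusted p = 0.906). At both, the groups overlapped and the spread within 12h exceeded the difference of the means. Glyma.14G001600 had 1.14, 0.0244 and 0.564 FPKM at 12h and 0.788, 2.48 and 1.16 FPKM at 24h, a wide spread within both groups. The remaining untested loci were Glyma.04G000600, which had 0.426 to 1.13 FPKM at 12h and 0.475 to 0.743 FPKM at 24h, and Glyma.02G311000 and Glyma.06G000400, which stayed under 1 FPKM in all 6 libraries.

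A list of 7 loci compiled from published reference genes, which are used as stable standards in expression work, was described in the same way. All 7 were tested and 0 passed, with a median log2 fold change of 0.59 as deposited and 0.45 after scaling. Of the 7, 6 were higher at 24h as deposited, beside 58.7% of all tested genes. After scaling 4 were higher, beside 50.9% of all tested genes, and Glyma.12G020500 and Glyma.12G051100 turned to -0.035 and -0.028. Glyma.20G141600 was higher in every 24h library, with 289, 252 and 235 FPKM at 12h and 538, 777 and 611 FPKM at 24h (log2 fold change 1.30 ± 0.48 SE; limma adjusted p = 0.839, unadjusted p = 0.0175). The difference of its means was 2.48-fold as deposited. After scaling the groups still did not overlap, and its log2 fold change was 1.15 ± 0.54 (SE; limma unadjusted p = 0.065). With the 48h libraries in the fit and without 12h replicate 2, 2 of the 7 reference loci passed as deposited, 1 higher and 1 lower. Scaled, 3 of 7 passed, 2 higher and 1 lower. In these fits 12.5% and 16.3% of all tested genes passed in either direction.

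Glyma.03G137100 was the one reference locus with a negative fold change as deposited, with 23.04, 8.26 and 23.3 FPKM at 12h and 14.998, 5.55 and 4.84 FPKM at 24h (log2 fold change -1.05; limma adjusted p = 0.839). Once more 12h replicate 2 lay among the 24h libraries. Glyma.02G276600 had 159, 174 and 62.1 FPKM at 12h and 219, 240 and 234 FPKM at 24h, without overlap as deposited and with overlap after scaling. Glyma.18G290800 went from 128 ± 41.3 to 196 ± 26.4 FPKM and Glyma.17G186600 from 1112 ± 326 to 1665 ± 396 FPKM (SD over 3 libraries). The smallest differences of the list were at Glyma.12G020500, with 45.6 ± 19.1 and 47.5 ± 13.9 FPKM, and Glyma.12G051100, with 60.02 ± 23.7 and 63.8 ± 21.2 FPKM (SD over 3 libraries).

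Separated genes were spread over all 20 chromosomes named in the IDs. The share of tested genes without overlap on both scales ran from 3.59% on chromosome 1 to 5.60% on chromosome 16, around 4.80% for all tested genes. The 9 called genes lay on 8 chromosomes, with 2 of them on chromosome 8. Among the 1020 genes that were higher on both scales, the next tested ID on the chromosome was also higher at 35 (3.43%), near the 3.48% of all tested genes. Among the 384 that were lower it was also lower at 14 (3.65%), beside 1.31% of all tested genes. Of the 18 IDs directly before or after a called gene, 11 were tested and 0 passed.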

How the data were processed

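The authors deposited 1 table of FPKM for 56044 gene IDs in 9 libraries. Per the submitters' processing notes, the tools were TopHat2 2.1.0 and Cufflinks 2.2.1. The genome build and gene models are not stated by any source used here. The table's name refers to tissue culture, whereas the labels say root hair cells; the labels were followed. Whole reads could not be recovered: over 15 pairs of libraries, 1.44% to 5.66% of genes under 0.2 FPKM lay within 1% of the most common ratio. Values of near-identical gene copies are uncertain, because reads can be split between them.

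Genes with at least 1 FPKM in 3 or more of the 6 libraries were fitted on log2(FPKM + 1) with limma 3.58.1 (R 4.3.3) with an intensity trend and 1 term per group, and p-values were adjusted by Benjamini-Hochberg over all 29274 tested genes. Fold changes on this scale understate the change of low genes. Scaling was by median-of-ratios factors. Single values were compared by two-sided exact permutation tests (SciPy 1.17.1). The fit was tested on simulated data. Members, lists and tests were chosen with earlier results of these data known. The naming rule took called genes of at least 5 FPKM without overlap, at most 2 that rose and 2 that fell by fold change (Glyma.16G039000, Glyma.11G236700, Glyma.10G003900 and Glyma.01G134700, and Glyma.08G263400 in the fit without 12h replicate 2), and the members of the 4 lists by ID. The other genes were named after their values were seen. Lists by words in gene descriptions could not be used.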

Additional observations from a re-analysis of the deposited data

How the results depend on the processing

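The count of 9 called genes became 3 with no filter, 4 with a filter at 5 FPKM, 1356 with array weights and 159 with a replicate block. Leaving out 1 library gave 5 to 20 genes as deposited (5 with 12h replicate 1 left out and 19 with 12h replicate 3 left out; 16 and 20 for 24h replicates 1 and 2). Added after seeing the data, a filter at 1 FPKM in a whole group gave 18, the replicate block with scaling 0 (2623 at an unadjusted p under 0.05, limma), and the fits with 48h libraries but without 12h replicate 2 gave 3647 and, scaled, 4785. The cause was not tested. Scaling (6), quantile normalization (6), pseudocounts of 0.1 and 0.25 (6 and 8), robust moderation (11) and all 9 libraries (13) stayed within 1.5 times. Leaving out 1 library gave 3860 to 12829 genes without overlap. It gave 0 to 1 called members on the morning list, the 1 without 24h replicate 2, and 0 on the evening, nodulation and reference lists. The median of all genes stayed within the spread of the library medians in all settings run.

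Whether the replicate numbers pair the samples was not settled. Deviations of same-numbered libraries correlated at 0.369, 0.0849 and 0.0461, the first being the highest of all pairs. Those of differently numbered libraries ran from -0.473 to 0.2502, and 12h replicate 2 correlated best with 24h replicate 3 (0.2502). Depth is unknown, so its part was not tested.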

Other observations

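The 48h libraries, which take no part in the comparison, give further values for the called genes. Glyma.08G122200 had 65.2, 67.4 and 92.2 FPKM in 48h replicates 1, 2 and 3 and Glyma.11G236700 had 46.9, 27.7 and 66.8 FPKM, in both far above the 12h libraries. Glyma.05G128000 had 4.12, 4.42 and 8.31 FPKM and Glyma.18G020300 had 3.55, 4.05 and 10.1 FPKM, above all 12h values in both. The genes with a group at 0 were more uneven at 48h. Glyma.16G039000 was at 1.15e-22, 26.1 and 3.91 FPKM and Glyma.12G085300 at 24.7, 10.04 and 1.87 FPKM. Glyma.10G003900 had 44.5, 52.9 and 8.48 FPKM and Glyma.08G263400 had 12.6, 3.81 and 8.06 FPKM, all above their 24h level of 0. Glyma.01G134700 had 17.5 and 3.33 FPKM and was listed at 0 in 48h replicate 3. In the fit of all 9 libraries, Glyma.16G039000 (limma adjusted p = 0.0739), Glyma.12G085300 (adjusted p = 0.128) and Glyma.01G134700 (adjusted p = 0.276) did not pass.

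One neighbour of a called gene, chosen after its values were seen, varied widely within 12h. Glyma.01G134600, the ID just before Glyma.01G134700, had 34.4, 22.3 and 348 FPKM in 12h replicates 1, 2 and 3 and 7.32, 21.9 and 5.59 FPKM in 24h replicates 1, 2 and 3 (log2 fold change -2.61; limma adjusted p = 0.839). At 24h replicate 2, the library in which Glyma.01G134700 was above 0, this neighbour was also highest of its group.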
